A study of Mus musculus with 6 samples.

Results

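The genes described here are 8 transcripts by which regulatory T cells are usually recognised or through which they act: the transcription factors Foxp3, Ikzf2 and Ikzf4, the surface proteins Itgb8, Ccr8 and Il1rl1, and the secreted products Penk and Areg. They were chosen by name and make up 8 of the 32285 genes in the matrices. Their levels were read in CD4 T cells with and without Foxp3, with CD8 T cells as background, by day after tumor implantation and by clone size. The question was which of the other 7 members go with Foxp3 and which do not.

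The cells came from brain tumors of CT2A, a mouse glioma line grown in the brains of C57BL/6J mice labelled WT and aged 6-8 weeks, and were sorted on CD3. The series description adds a sort on CD4 or CD8. The day 13 group used 16 mice, pooled by 4, and the day 19 group used 4 mice. Each day is 1 capture of pooled animals, read with 10x Genomics 5' chemistry as gene expression, antibody tag and T cell receptor libraries. A difference between the days therefore has no replicate check, and day and capture cannot be told apart. The receptor contigs of each day lie in 4 separate tables, called contig sets here. Which mice a set holds is not stated, so the sets are described by their ranges and are not used as replicates. The share of all genes without overlap between sets was not counted, so overlap is a description. No p-value is given, and all intervals are exact 95% intervals that cover counting error only.

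Regulatory T cells are CD4 T cells that hold other immune cells in check, and the transcription factor Foxp3 keeps their program running. Helios (Ikzf2) and Eos (Ikzf4) are zinc finger factors of the Ikaros family that act alongside Foxp3. Regulatory T cells in tumors and injured tissue often carry the chemokine receptor Ccr8, the IL-33 receptor ST2 (Il1rl1) and the integrin chain Itgb8, which together with Itgav frees active TGF-beta, and they can release the growth factor amphiregulin (Areg) and enkephalin peptides cut from proenkephalin (Penk). Activated conventional CD4 T cells can also express some of these genes, Penk and Ccr8 among them.

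A UMI (unique molecular identifier) marks 1 captured molecule, and the gene UMIs of the matrices summed to 144565182 for day 13 and 81224453 for day 19. Of 8359 and 4295 barcodes with receptor contigs, 3775 and 2159 had at least 5000 gene UMIs, at most 10% mitochondrial UMIs and at most 3 UMIs of the macrophage genes C1qa, Lyz2 and Csf1r together. CD4 cells had a Cd4 UMI and none of Cd8a and Cd8b1. There were 499 at day 13, from 86 to 158 per set, and 377 at day 19, where set 1 held 12 and the others 66 to 220. Of these, 150 and 125 had at least 1 Foxp3 UMI and are called Foxp3-positive, and 349 and 252 had none. CD8 cells numbered 2646 and 1436. Cd4 and the Cd8 genes chose the classes and so do not check them. The 6 genes of the T cell receptor complex, which CD4 and CD8 cells both use, summed to 2497 UMIs per 1000000 summed UMIs (CPM) in Foxp3-positive and 3009 CPM in Foxp3-negative cells at day 13, to 2848 and 3710 CPM at day 19, and to 3550 and 3581 CPM in CD8 cells of day 13 and day 19. The days shared 58 contig barcodes, 13 of them among the cells kept.

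Promoter sequence from RefSeq (build GRCm38.p6) was at hand for 5 of the 8 members: Foxp3, Itgb8, Ccr8, Areg and Il1rl1. Ikzf2, Ikzf4 and Penk had no entry. The 250 bases before each start were searched on both strands for the cAMP response element TGACGTCA, the forkhead-type motif TGTTTAC, the AP-1 motif TGANTCA and TATAAA. The Areg promoter, chr5:91139349-91139598 on the plus strand, is shown because it is the member's promoter with most matches. The capitals mark TGACGTCA, 61 to 54 bases before the start, and TATAAA, 31 to 26 bases before it.
Areg: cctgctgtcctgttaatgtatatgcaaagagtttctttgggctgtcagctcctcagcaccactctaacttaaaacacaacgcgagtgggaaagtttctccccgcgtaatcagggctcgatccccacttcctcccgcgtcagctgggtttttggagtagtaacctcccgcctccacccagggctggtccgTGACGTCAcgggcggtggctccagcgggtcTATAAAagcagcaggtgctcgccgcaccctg
Of 32851 promoters of this length, 1.55% hold TGACGTCA and 12.4% hold TATAAA. The window before the second Il1rl1 start in the table, chr1:40439379-40439628 on the plus strand, holds the forkhead-type motif on the minus strand, 117 to 111 bases before the start, and is shown because Foxp3 is itself a forkhead protein. The capitals mark that match, read on the plus strand.
Il1rl1: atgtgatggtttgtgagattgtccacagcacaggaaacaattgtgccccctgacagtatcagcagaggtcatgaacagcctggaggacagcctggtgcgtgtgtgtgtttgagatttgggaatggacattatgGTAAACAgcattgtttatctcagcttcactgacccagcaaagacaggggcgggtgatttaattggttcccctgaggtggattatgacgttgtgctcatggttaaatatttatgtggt
The forkhead-type motif lies in 3.17% of promoters. The window before the first Foxp3 start, chrX:7579426-7579675, holds TATAAA 32 to 27 bases before the start, and no member's window holds TGANTCA, which 6.75% of promoters do. A match is a description of the letters and not of binding.

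Foxp3 (X:7579676-7595243), the factor that defines the split, was found in shares of CD4 cells whose intervals overlapped between the days. To compare shares at equal depth, each cell was thinned to 5000 UMIs. After thinning, 25.7% (21.9 to 29.7) of day 13 cells and 29.7% (25.1 to 34.6) of day 19 cells held Foxp3, and without thinning 30.1% and 33.2%. By set the thinned share was 24.4%, 29.1%, 22.3% and 26.2% at day 13 and 33.3%, 30.0%, 21.5% and 37.9% at day 19, where set 1 rests on 12 cells. The ranges of the days overlapped. With a minimum of 2500 UMIs per cell, and cells thinned to 2500 UMIs, the shares were 14.1% and 20.7%. There the minimum and the thinning depth changed together. In CD8 cells the thinned share was 1.93% and 1.11%. Median depths before thinning were 7199 and 9097.5 UMIs for CD8 and 6844 and 7868 UMIs for CD4 cells.

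Foxp3 was read from few molecules per cell. A positive cell held a median of 4 UMIs at day 13 and 5 at day 19, at most 18 and 21, and 14.0% and 11.2% of positive cells held only 1. Positive cells were also deeper than negative ones, with medians of 8539.5 against 6509 UMIs at day 13 and 9608 against 7481.5 at day 19. Within positive cells the Foxp3 level was 496, 513, 419 and 442 CPM in the day 13 sets and 447, 459, 404 and 608 CPM in the day 19 sets. These ranges overlap, and the log2 ratio of day 19 to day 13 was 0.04 (-0.11 to 0.19). A Foxp3 UMI chose these cells and their depth differs between the days, so this ratio is not read as a comparison of the days.

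Of the 7 members other than Foxp3, 6 were at least 2-fold higher in Foxp3-positive than in Foxp3-negative CD4 cells at day 13, and 5 at day 19. Ikzf2, Ikzf4, Itgb8, Areg and Il1rl1 passed that fold on both days, Ccr8 passed it at day 13 only, and Penk on neither day. Among all genes with at least 100 UMIs in the compared cells, 3.38% were at least 2-fold higher at day 13 and 2.90% at day 19. With at least 20 UMIs, which every member had, the shares were 5.72% and 5.53%. The median log2 ratio of all genes with at least 100 UMIs was 0.01 at day 13 and 0.03 at day 19. Without day 13 set 4 the day 13 count was 4, with Ccr8 at 0.94, and with a minimum of 8000 UMIs per cell the day 19 count was 3.

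**Figure D1:**
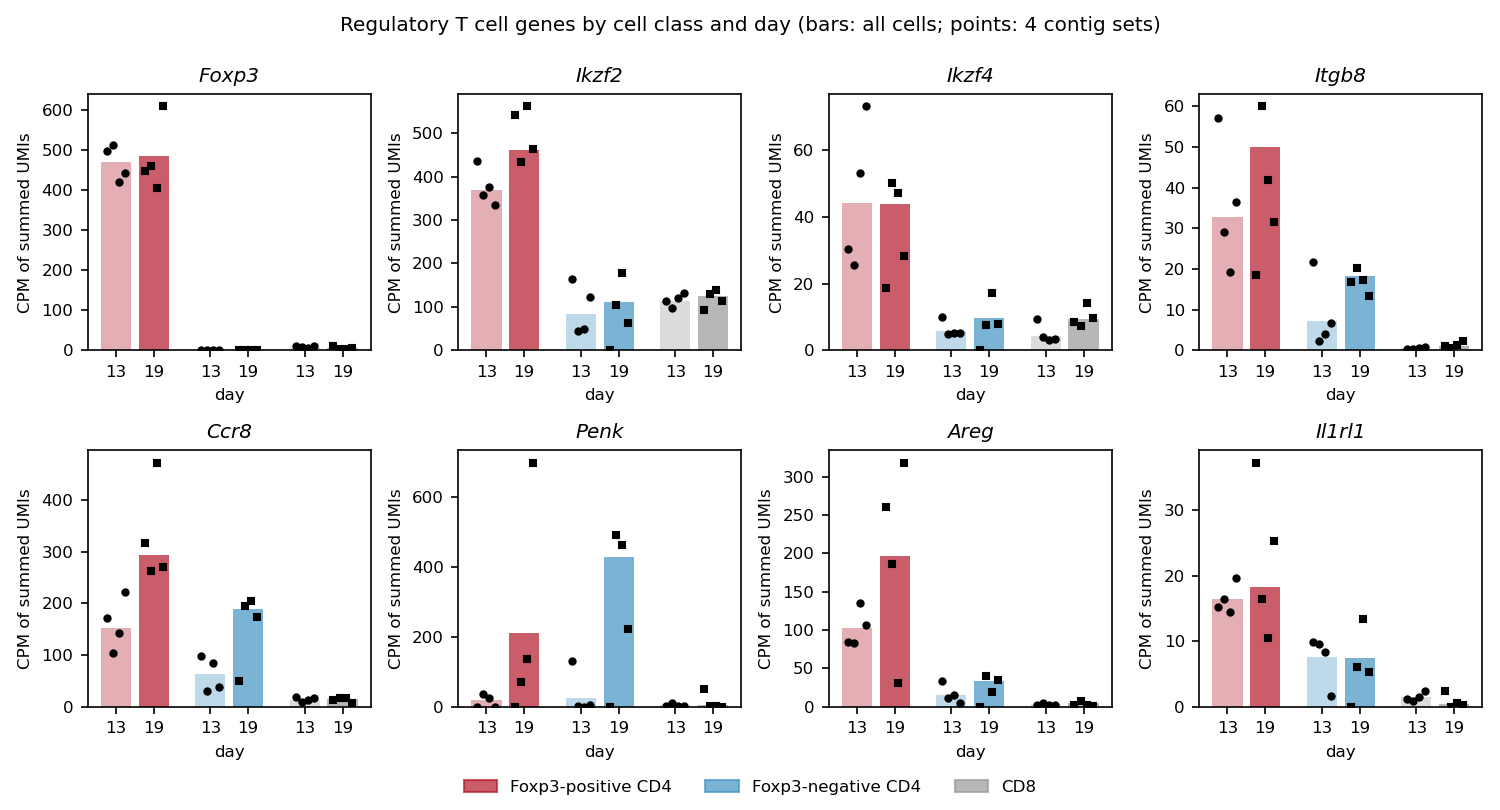
Level of each member (vertical axis, CPM of summed UMIs) by day (horizontal axis) in Foxp3-positive CD4, Foxp3-negative CD4 and CD8 cells. Bars are all cells of a class and points the 4 contig sets; Ikzf2 in Foxp3-positive cells lies between 335 and 561 CPM in all 8 sets and between 0 and 179 CPM in Foxp3-negative cells, while Penk points of both CD4 classes spread from 0 to 492 CPM or more at day 19.

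Ikzf2 (1:69531207-69687351), which encodes Helios, was the member found in the largest share of Foxp3-positive cells. In those cells its level was 435, 357, 375 and 335 CPM in the day 13 sets and 540.5, 433, 561 and 463 CPM in the day 19 sets. In Foxp3-negative cells it was 164, 45.5, 49.95 and 124 CPM, and then 0, 103, 179 and 63.9 CPM. Every set was higher in its Foxp3-positive cells, and the classes did not overlap on either day. The log2 ratio was 2.14 (1.93 to 2.37) at day 13 and 2.05 (1.84 to 2.26) at day 19. After thinning, 80.7% and 84.8% of positive cells held an Ikzf2 UMI, against 19.8% and 25.8% of negative cells.

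CD8 cells also held Ikzf2, at a level near that of Foxp3-negative CD4 cells. The CD8 level was 114, 96.8, 121 and 133 CPM in the day 13 sets and 92.2, 129, 139.9 and 114 CPM in the day 19 sets. The thinned share of CD8 cells with an Ikzf2 UMI was 30.4% and 34.3%. Foxp3-negative CD4 cells stood slightly below CD8 cells, at log2 ratios of -0.44 (-0.64 to -0.25) and -0.16 (-0.35 to 0.03), and their sets overlapped.

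Ikzf4 (10:128630839-128669671), which encodes Eos, was found in fewer cells, and its ratio at day 13 was above that of Ikzf2 with overlapping intervals. Its level in Foxp3-positive cells was 30.5, 25.5, 53.3 and 73.1 CPM in the day 13 sets and 18.6, 50.2, 47.2 and 28.4 CPM in the day 19 sets. Foxp3-negative cells had 9.87, 4.78, 5.20 and 5.09 CPM, and then 0, 7.49, 17.3 and 7.99 CPM. The classes did not overlap, though the lowest positive set of day 19, with 1 UMI in 5 cells, lay just above the highest negative set. The log2 ratio was 2.91 (2.13 to 3.77) at day 13, from 70 against 17 UMIs, and 2.19 (1.48 to 2.96) at day 19, from 65 against 22, where it was 1.43 without set 2. Foxp3-negative CD4 cells and CD8 cells differed by less than their counting error, at 0.46 (-0.37 to 1.21) and 0.05 (-0.67 to 0.70).

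Itgb8 (12:119162803-119238276), the integrin chain that pairs with Itgav, was higher with Foxp3 in every set, and the ranges of the classes overlapped. Positive cells had 57.2, 29.1, 19.4 and 36.6 CPM in the day 13 sets and 18.6, 60.0, 42.0 and 31.5 CPM at day 19. Negative cells had 21.7, 2.39, 4.16 and 6.78 CPM, and then 16.8, 20.2, 17.3 and 13.3 CPM. The log2 ratio was 2.18 (1.42 to 2.99) at day 13 and 1.45 (0.88 to 2.03) at day 19. It was 1.53 at day 13 without cells holding a Mki67 or Top2a UMI, and with a minimum of 8000 UMIs per cell it fell under 2-fold at day 19, at 0.73. Itgb8 was nearly absent from CD8 cells, at 0.496 and 1.12 CPM, so that even Foxp3-negative CD4 cells exceeded CD8 cells by 3.87 (2.78 to 5.03) and 4.03 (3.20 to 4.91) on the log2 scale, without overlap of sets. Its partner Itgav was at 161 CPM in positive and 57.0 CPM in negative cells at day 13 and at 244 and 109.6 CPM at day 19.

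Ccr8 (9:120092133-120094906), a chemokine receptor often used to mark regulatory T cells in tumors, was higher with Foxp3 in every set but by less than the genes above. Foxp3-positive cells had 172, 104, 143 and 222 CPM in the day 13 sets and 317, 263, 472 and 271 CPM at day 19. Foxp3-negative cells had 98.7, 31.1, 85.3 and 39.0 CPM, and then 50.4, 194, 204 and 173 CPM. The classes did not overlap within a day, but the highest negative sets of day 19 lay above the lowest positive sets of day 13. The log2 ratio was 1.28 (1.00 to 1.57) at day 13, with 0.94 when set 4 was left out, and 0.64 (0.44 to 0.83) at day 19, where it was 0.18 with a minimum of 8000 UMIs per cell and 1.30 without cells holding a Mki67 or Top2a UMI. In CD8 cells Ccr8 was at 12.3 and 14.3 CPM, below Foxp3-negative CD4 cells by a log2 ratio of 2.35 (2.07 to 2.62) and 3.72 (3.49 to 3.96).

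Ccl1, a ligand of Ccr8 made by activated T cells, had 1 UMI in Foxp3-positive and 38 in Foxp3-negative cells at day 13, a log2 ratio of -4.38 (-9.72 to -1.81). At day 19 it had 0 and 104 UMIs. Ccl8, another ligand, had 0 and 1 UMIs at day 13, too few to compare.

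Il1rl1 (1:40404864-40465418), the receptor chain that binds IL-33, rested on few molecules. Positive cells had 15.3, 16.4, 14.5 and 19.7 CPM in the day 13 sets and 37.3, 16.4, 10.5 and 25.2 CPM at day 19. Negative cells had 9.87, 9.57, 8.33 and 1.70 CPM, and then 0, 5.99, 13.4 and 5.33 CPM. The classes did not overlap at day 13, and at day 19 set 3 was higher in its negative cells. The log2 ratio was 1.11 (0.24 to 2.00) from 26 against 22 UMIs, and 1.30 (0.37 to 2.27) from 27 against 17. The day 13 value became -0.26 when CD4 cells needed 2 Cd4 UMIs, and it was under 2-fold without set 4, at 0.77, and without cells holding a Mki67 or Top2a UMI, at 0.64. The day 19 value was also under 2-fold without those cells, at 0.57, and with a minimum of 8000 UMIs, at 0.96. Il1rap, the other chain of the receptor, was at 8.23 and 6.57 CPM at day 13, and the ligand Il33 had no UMI in the CD4 cells of either day.

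Areg (5:91139599-91148432), a growth factor of the EGF family tied to tissue repair by regulatory T cells, had a log2 ratio of 2.72 (2.24 to 3.23) at day 13 and 2.57 (2.20 to 2.95) at day 19. Positive cells had 84.0, 83.7, 136 and 107 CPM in the day 13 sets and 261, 186, 31.5 and 318 CPM at day 19. Negative cells had 33.6, 11.96, 15.6 and 5.09 CPM, and then 0, 39.7, 19.2 and 34.6 CPM. The classes did not overlap at day 13, and at day 19 only positive set 3 reached into the negative range. The day 19 ratio was 3.16 without set 2 and 1.59 without the filter on macrophage genes. About the same share of positive cells held Areg on both days after thinning, 22.0% and 22.4%, and 4 cells held 50% of the day 19 UMIs of positive cells, the highest of them 66. In CD8 cells Areg was at 3.27 and 4.30 CPM.

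Penk (4:4133536-4138815), the precursor of the enkephalin peptides, was the member not bound to Foxp3. Positive cells had 0, 36.4, 24.2 and 0 CPM in the day 13 sets and 0, 69.8, 136 and 699.9 CPM at day 19. Negative cells had 132, 2.39, 0 and 5.09 CPM, and then 0, 492, 465 and 224 CPM. Sets of both classes ranged from 0 to the highest values, and only 2 sets of day 13 and 1 of day 19 were higher in their positive cells. The log2 ratio was -0.39 (-1.06 to 0.24) at day 13 and -1.02 (-1.21 to -0.84) at day 19; among all genes, 2.42% were at least 2-fold lower in positive cells at day 19. Without day 19 set 2 the day 19 value was 0.37, and the day 13 value ranged from -4.16 to 3.44 over the alternatives, so no direction is given.

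**Figure D2:**
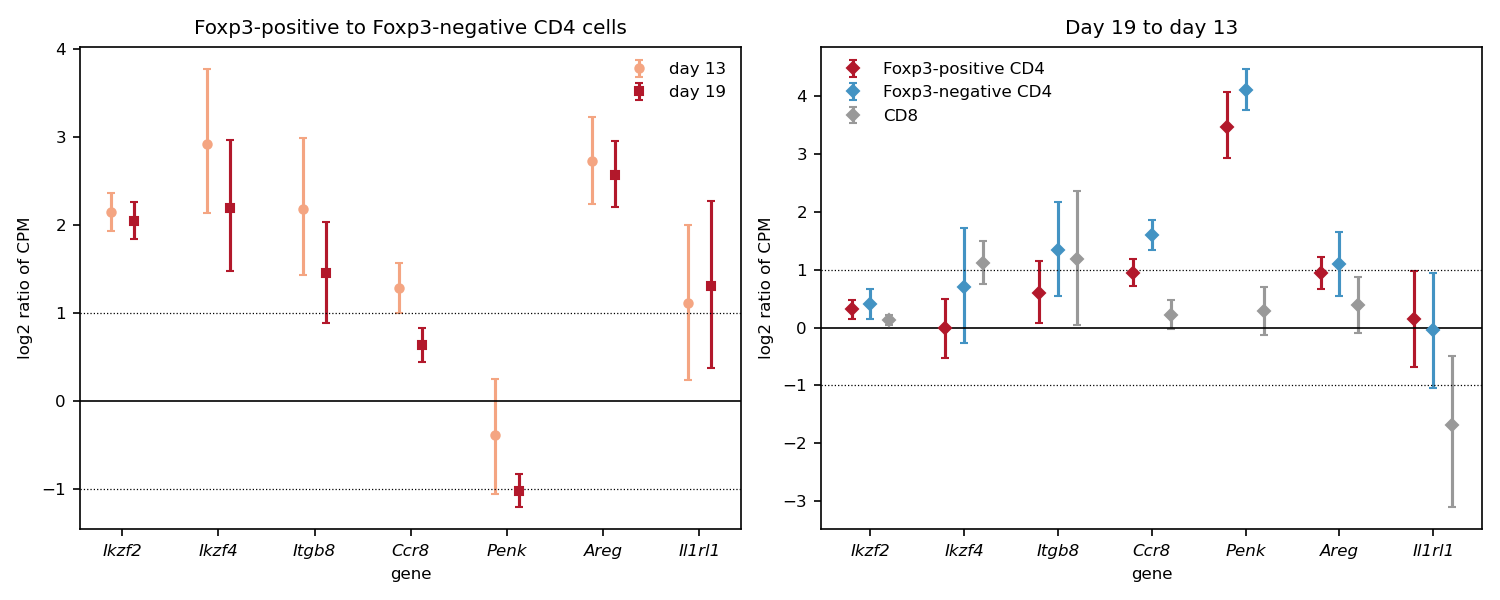
Log2 ratio of CPM (vertical axis) for the 7 members other than Foxp3 (horizontal axis); left, Foxp3-positive to Foxp3-negative CD4 cells by day, and right, day 19 to day 13 by cell class. Bars are exact 95% counting intervals and dotted lines mark a 2-fold difference; on the left 5 members lie above the upper line on both days, Ccr8 lies at 1.28 and 0.64 and Penk at -0.39 and -1.02, and on the right Penk lies at 3.48 and 4.11 in the CD4 classes and at 0.29 in CD8 cells.

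The same cells and counts were also read the other way, with cells chosen by the member and Foxp3 read in them. The order was similar, and this is not a separate check. After thinning, Foxp3 was found in 71.1% of the 38 CD4 cells with an Ikzf4 UMI at day 13 and in 65.8% of 38 at day 19. Cells with Areg had it in 65.2% and 64.1%, cells with Ikzf2 in 56.8% and 57.3%, cells with Itgb8 in 61.5% and 52.6%, and cells with Il1rl1 in 57.1% and 47.8%. All of these stood above the share over all CD4 cells, 25.7% and 29.7%, and for Il1rl1 at day 19 the interval (26.8 to 69.4) held that share. Cells with Ccr8 had Foxp3 in 42.9% (31.6 to 54.6) and 42.0% (33.8 to 50.5). Cells with Penk had it in 4 of 10 and in 9 of 33, or 27.3% (13.3 to 45.5).

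**Figure D3:**
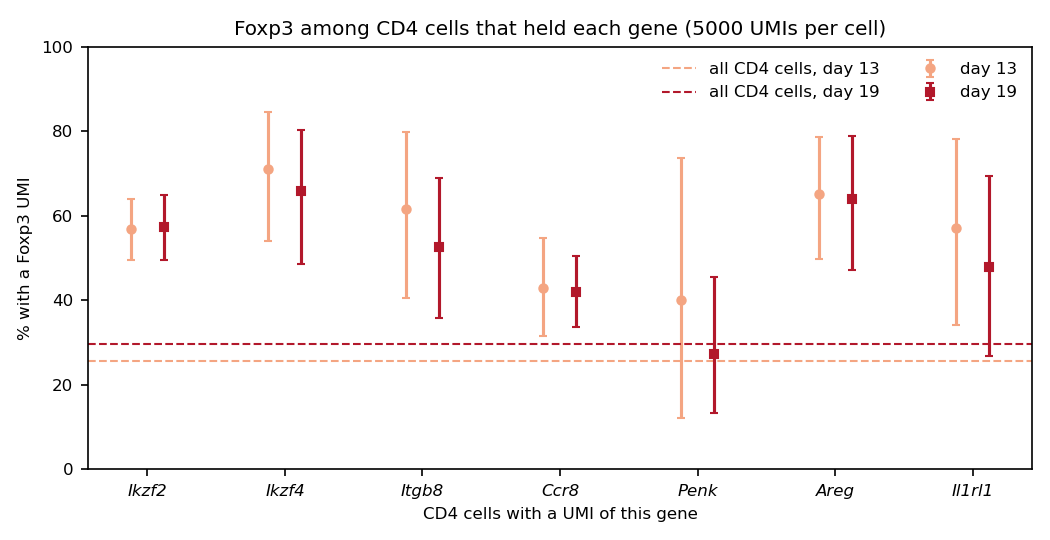
Share of CD4 cells with a Foxp3 UMI (vertical axis, percent, cells thinned to 5000 UMIs) among cells that held a UMI of each member (horizontal axis). Points are days with exact binomial 95% intervals and dashed lines the share over all CD4 cells, 25.7% and 29.7%; Ikzf4 and Areg holders lie highest and Penk holders at day 19, with 27.3%, lie at the line.

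Foxp3-positive cells held 57.0% of the Ccr8 UMIs of CD4 cells at day 13 and 50.1% at day 19, with 35.3% and 39.2% of all UMIs. For Ikzf4 the shares were 80.5% and 74.7%, for Areg 78.3% and 79.3%, and for Penk 29.4% and 24.1%. Among 7480 and 7071 genes with at least 50 UMIs, ordered by the ratio of positive to negative cells, Ikzf4 stood at place 16 and 28, Areg at 19 and 18, Ikzf2 at 44 and 32, and Itgb8 at 42 and 106. Ccr8 stood at 176 and 627, and Penk at 6411 and 6874. Il1rl1 had too few UMIs to be placed.

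Within positive cells, more Foxp3 UMIs went with more of some members and not of others. At day 13 Ikzf2 went from 83.6 CPM in cells with 0 Foxp3 UMIs to 322 with 1 to 3, 394 with 4 to 6 and 413 with 7 or more, in 349, 59, 55 and 36 cells. At day 19 it went from 111 to 443, 444 and 481 CPM in 252, 50, 29 and 46 cells. Most of the difference thus lay between 0 and any Foxp3. Ccr8 was instead near the negative level in cells with 1 to 3 Foxp3 UMIs at day 19, at 199 against 189 CPM, and was 422 and 307 CPM in the higher bins. At day 13 its values were 62.6, 94.6, 171 and 218 CPM. Areg stood at 109, 92.6 and 107 CPM over the 3 positive bins of day 13 and at 69.7, 393 and 204 CPM at day 19, and Penk followed no order. Cells with more Foxp3 UMIs at day 19 were also deeper, with a median of 12559.5 UMIs in the highest bin against 8846.5 in the lowest positive one. At day 13 depth went the other way, with 6953.5 UMIs in the highest bin against 8914 in the lowest positive one.

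**Figure D4:**
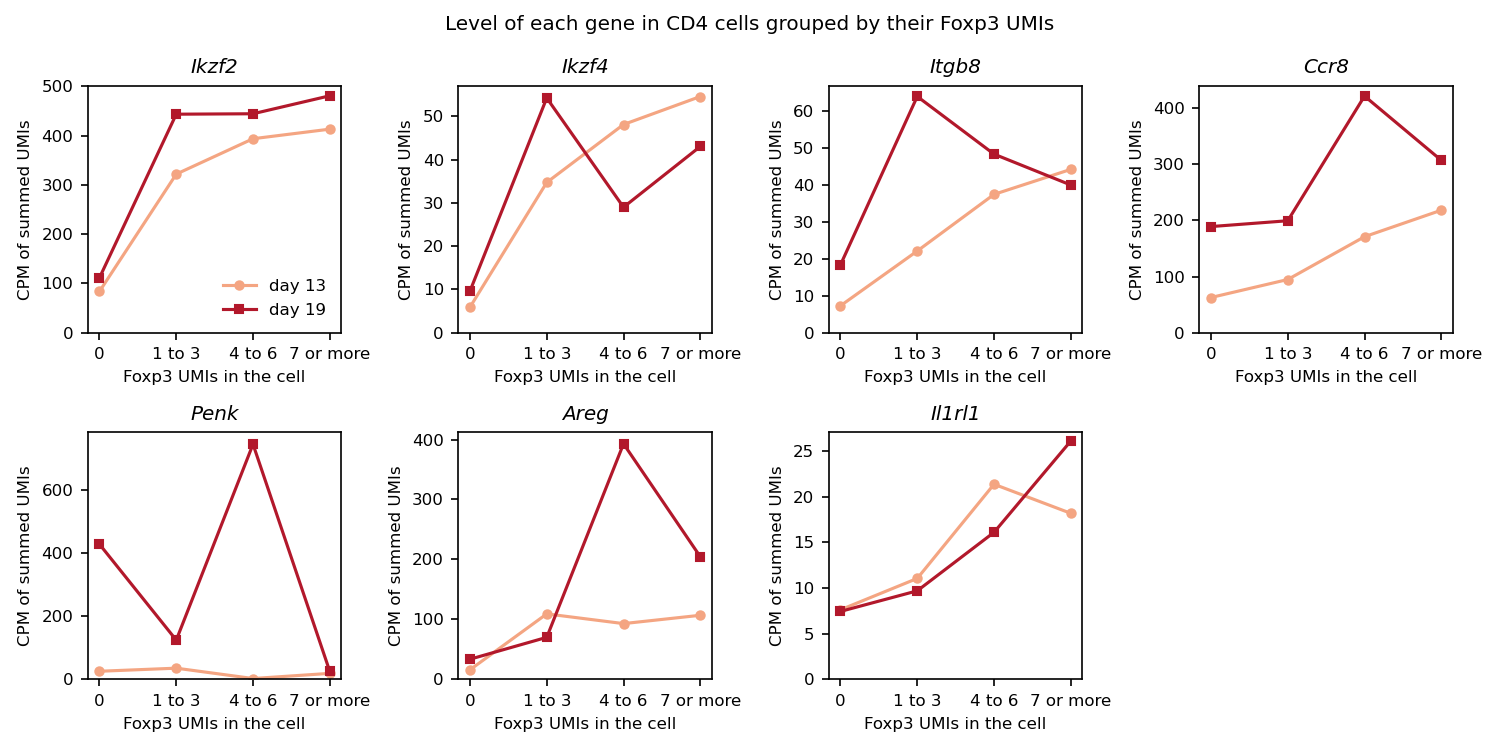
Level of each member (vertical axis, CPM of summed UMIs) in CD4 cells grouped by their number of Foxp3 UMIs (horizontal axis); each point is the sum over the cells of a bin on 1 day. Ikzf2 steps from 83.6 and 111 CPM at 0 UMIs to 322 and 443 CPM at 1 to 3 and then levels off, and Ccr8 at day 19 stays at 199 CPM in the 1 to 3 bin.

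The number of members found in a cell was counted by class. The mean follows from the share of cells with each member, and no expected number for members found independently was computed. After thinning, a positive cell held UMIs of 1.69 of the 7 other members on average at day 13 and 2.19 at day 19, and 22.0% and 37.6% of positive cells held at least 3. Negative cells held 0.441 and 0.837, with 3.72% and 6.35% holding at least 3, and CD8 cells 0.367 and 0.444, with 0.567% and 0.209%. Negative cells that carried several members were thus few, 13 at day 13 and 16 at day 19.

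Ccr8 and Itgb8 tended to lie in the same day 13 cells: 13 of 18 positive cells with Itgb8 also held Ccr8, or 72.2% (46.5 to 90.3), against 19.7% of those without. At day 19 the shares were 59.1% and 52.4%. Areg went with Il1rl1 in positive cells, in 6 of 12 against 19.6% at day 13 and in 6 of 14 against 19.8% at day 19, with wide intervals (21.1 to 78.9 and 17.7 to 71.1). Among Foxp3-negative cells, Itgb8 was found in 8 of 69 cells with Ikzf2 and in 0 of 280 without at day 13, an exact upper bound of 1.31%, and in 16.9% against 2.67% at day 19. These pairs come from cells thinned to the same depth and are a description.

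Over all CD4 cells, the log2 ratio of day 19 to day 13 was 3.91 (3.62 to 4.22) for Penk, 1.29 (1.12 to 1.46) for Ccr8, 1.07 (0.82 to 1.33) for Areg, 0.92 (0.48 to 1.36) for Itgb8 and 0.43 (0.29 to 0.56) for Ikzf2, and within counting error of 0 for Ikzf4 and Il1rl1. In Foxp3-positive cells 1 of the 7 members, Penk, differed by at least 2-fold between the days, where 5.26% of all genes with at least 100 UMIs and 9.57% of those with at least 20 did. The Penk log2 ratio was 3.48 (2.93 to 4.07), from 30 UMIs in 4 cells to 312 UMIs in 13 cells. It kept its sign but not its size, at 2.03 without day 19 set 4, 4.54 without day 19 set 2, 4.44 without day 13 set 2 and 7.24 without cells holding a Mki67 or Top2a UMI. Ccr8 was at 0.95 (0.72 to 1.18) and Areg at 0.94 (0.66 to 1.23), just under that fold. Ccr8 was the member whose positive sets did not overlap between the days, with 104 to 222 CPM against 263 to 472 CPM. How many of all genes had sets without overlap was not counted. Itgb8 had 0.61 (0.07 to 1.15), Ikzf2 0.32 (0.15 to 0.48), Il1rl1 0.15 (-0.68 to 0.99) and Ikzf4 -0.01 (-0.52 to 0.50), and their sets overlapped. The count of 1 became 3 without day 19 set 2 and 0 when the filter on macrophage genes was dropped, where Penk was at 0.17 and Areg at -0.21.

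In Foxp3-negative cells the ratios of the days were larger for the same genes, and the difference between the classes was not tested. Penk had a log2 ratio of 4.11 (3.76 to 4.47), Ccr8 1.60 (1.34 to 1.85), Itgb8 1.34 (0.55 to 2.17) and Areg 1.09 (0.54 to 1.66), so that 4 members differed by at least 2-fold, against 3.70% of all genes with at least 100 UMIs and 7.30% with at least 20. Areg was under that fold without day 19 set 2, at 0.63, and with contig-set means, at 0.4986, and also without day 13 set 2 or set 4 and with a minimum of 2500 UMIs. Itgb8 was at 0.99 without day 13 set 2, at 0.95 with contig-set means, at 2.13 without day 13 set 1 and at 0.78 without cells holding a Mki67 or Top2a UMI. Penk was at 7.68 without day 13 set 1, 3.52 without day 13 set 3 and 2.52 without the filter on macrophage genes. Ikzf2 was at 0.41 (0.15 to 0.67), Ikzf4 at 0.71 (-0.27 to 1.71) and Il1rl1 at -0.03 (-1.04 to 0.95). The sets of the days overlapped for every member. Without day 19 set 1, which held 7 negative cells, the sets of Ccr8 (173 to 204 against 31.1 to 98.7 CPM) and Penk (224 to 492 against 0 to 132 CPM) did not overlap, and those of the other members still did. Here too the share of all genes was not counted. After thinning, Ccr8 was found in 10.9% (7.82 to 14.6) of negative cells at day 13 and in 30.2% (24.6 to 36.2) at day 19. In CD8 cells Ccr8 differed by 0.22 (-0.03 to 0.48) and Penk by 0.29 (-0.12 to 0.70).

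Among CD8 cells 3 members differed by at least 2-fold between the days, where 4.02% of all genes with at least 100 UMIs and 7.27% with at least 20 did. Ikzf4 was at 4.26 and 9.29 CPM, a log2 ratio of 1.13 (0.75 to 1.502), Itgb8 at 1.18 (0.04 to 2.36) from 12 and 18 UMIs, and Il1rl1 at -1.69 (-3.11 to -0.49) from 34 and 7 UMIs. All 3 had overlapping sets. Foxp3 itself was lower in CD8 cells at day 19, at 4.87 against 8.52 CPM, with overlapping sets (3.44 to 11.4 against 7.17 to 11.5 CPM).

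Penk lay in a handful of cells. At day 13, 10 CD4 cells held its 102 UMIs, and the 5 highest held 94 of them. At day 19, 37 CD4 cells held 1294 UMIs, 13 of them Foxp3-positive, and the 5 highest cells held 793. The highest cell, with 187 UMIs, had 4 Foxp3 UMIs, and the next 4 had 181, 155, 140 and 130 Penk UMIs and no Foxp3. At least 10 Penk UMIs were found in 3 cells at day 13 and 21 at day 19, of which 1 and 7 were Foxp3-positive, or 33.3% on both days. The day 19 Penk cells lay in sets 2, 3 and 4, with 24, 6 and 7 cells. They carried Ccr8 in 78.4% of cases, against 46.2% of other CD4 cells, at median depths of 9664 and 7661 UMIs.

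**Figure D5:**
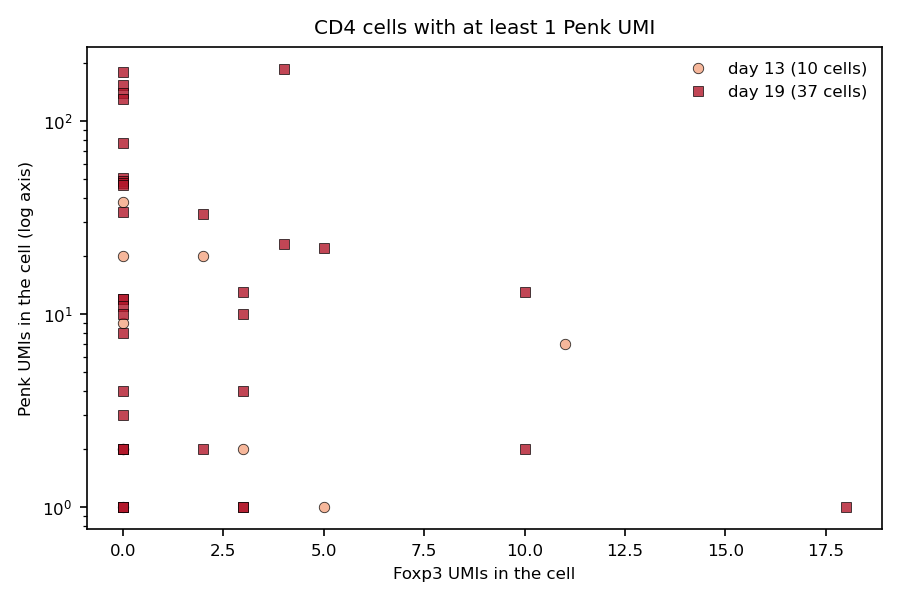
Penk UMIs (vertical axis, log scale) against Foxp3 UMIs (horizontal axis) in each CD4 cell with at least 1 Penk UMI, with circles for day 13 and squares for day 19. The cells with 130 to 187 Penk UMIs are 4 with 0 and 1 with 4 Foxp3 UMIs, and no cell with more than 11 Foxp3 UMIs has more than 1 Penk UMI.

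Clone size was read from cells with exactly 1 TRA and 1 TRB chain, and a cell was expanded if another cell of its contig set had the same CDR3 nucleotides of both chains. Foxp3-positive cells were expanded in 12.4% of 97 cells at day 13 (6.56 to 20.6) and 36.4% of 88 at day 19 (26.4 to 47.3). Foxp3-negative cells were expanded in 14.2% of 232 and 43.2% of 199, where day 19 set 2 held 63 of the 86 expanded cells and the share without it was 28.4% of 81. CD8 cells were expanded in 28.6% and 31.5%. Both CD4 classes thus had a higher expanded share at day 19. The days also differ in their number of mice, 16 against 4, and the part of that difference was not tested.

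Clones with 2 or more CD4 cells numbered 17 at day 13 and 36 at day 19. Of these, 1 and 6 had only Foxp3-positive cells, 3 and 7 were mixed, and 13 and 23 had none. The Foxp3-negative cells of clones that also held a positive cell often carried Ikzf2, 3 of 4 cells at day 13 and 6 of 8 at day 19, against 7 of 27 and 20 of 70 in clones with no positive cell. Their Ccr8 share was 3 of 4 and 4 of 8, against 7 of 27 and 40 of 70. The CDR3 sequences of 4 clones are shown to give one example of each kind: clone A of day 19 set 2 had 15 CD4 cells and no Foxp3, clone B of day 19 set 4 had 3 cells, all Foxp3-positive, clone C of day 19 set 2 had 4 cells of which 2 were positive, and clone D of day 13 set 1 had 2 Foxp3-negative cells, 1 of them with Penk. Each sequence is read from the deposited contigs and runs from the conserved cysteine codon to the last codon of the CDR3.
Clone A TRA: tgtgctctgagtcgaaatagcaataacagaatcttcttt
Clone A TRB: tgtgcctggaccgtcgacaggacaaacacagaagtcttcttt
Clone B TRA: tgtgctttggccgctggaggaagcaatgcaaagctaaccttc
Clone B TRB: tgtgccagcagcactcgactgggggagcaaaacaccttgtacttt
Clone C TRA: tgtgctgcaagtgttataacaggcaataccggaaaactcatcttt
Clone C TRB: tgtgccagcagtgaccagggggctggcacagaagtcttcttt
Clone D TRA: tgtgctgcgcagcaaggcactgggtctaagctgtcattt
Clone D TRB: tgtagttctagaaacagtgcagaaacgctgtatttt
Clone A held 24 Ccr8 UMIs in 9 of its 15 cells, 5 Penk UMIs in 3 cells and 1 Ikzf2 UMI. Clone B held 38 Foxp3, 25 Ikzf2, 21 Areg and 5 Ikzf4 UMIs, and only 3 of Ccr8. In clone C, Ikzf2 (24 UMIs) and Ccr8 (26 UMIs) were in all 4 cells, with 9 Foxp3 UMIs in 2 of them. Clone D held 38 Penk UMIs in 1 of its 2 cells and 17 Ccr8 UMIs in both. No clone among those with 2 or more CD4 cells lay in more than 1 set at day 13, while 11 of 43 did at day 19 when cells were counted over sets.

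Among Foxp3-positive cells, 44 expanded and 141 single cells over both days differed by at least 2-fold in 1 of the 7 members, Penk, against 3.58% of all genes with at least 100 UMIs and 9.00% with at least 20. The pool mixes the days unevenly, since 32 of the 44 expanded and 56 of the 141 single cells were from day 19. The log2 ratio of Penk was 2.20 (1.49 to 2.93) from 48 against 27 UMIs, and it was -2.40 with a minimum of 8000 UMIs and -1.29 without cells holding a Mki67 or Top2a UMI, so it has no stable direction. By day, 3 of 7 members differed by at least 2-fold at day 13, where 8.03% of genes with at least 100 UMIs and 16.9% with at least 20 did: Penk at 7.11, from 20 UMIs in 1 expanded cell against 1 UMI, Itgb8 at 1.32 and Areg at -1.81. Itgb8 was at 0.58 without set 2 and 2.41 without set 1, and Areg at -0.95 with a minimum of 8000 UMIs. At day 19 it was 0 of 7, where 1.20% and 7.36% of genes did, and Ccr8 was at 0.53 (-0.18 to 1.19) at day 13 and -0.24 (-0.59 to 0.09) at day 19. Over both days, Ikzf2 was at 0.01 (-0.21 to 0.22), Ikzf4 at -0.08 (-0.86 to 0.65), Ccr8 at 0.24 (-0.06 to 0.53), Itgb8 at 0.53 (-0.14 to 1.18) and Il1rl1 at -0.47 (-1.92 to 0.78). Foxp3 chose these cells, so its own level is not compared between them. Areg was at -1.81 (-3.71 to -0.40) at day 13, from 4 against 97 UMIs, and at -0.77 (-1.19 to -0.36) at day 19, from 71 against 171. Its day 19 value was 1.47 without set 2 and -4.36 without cycling cells, so it has no stable size or direction there.

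Foxp3-negative cells are given by day. At day 13, in 33 expanded against 199 single cells, Ccr8 had a log2 ratio of 2.22 (1.70 to 2.74), Ikzf2 1.38 (0.84 to 1.91), Itgb8 2.70 (1.04 to 4.40) from 8 against 7 UMIs, Ikzf4 1.28 (-1.30 to 3.42) from 3 against 7 UMIs, and Penk 7.59 (5.69 to 10.67) from 68 against 2 UMIs. In set 1, 3 cells with 38, 20 and 9 Penk UMIs held 67 of the 68, and leaving that set out gave 1 against 2 UMIs, so the Penk value describes those cells. With Penk, 5 of 7 members were at least 2-fold higher, where 1.30% of all genes with at least 100 UMIs and 4.41% with at least 20 were. Itgb8 and Ikzf4 had fewer UMIs than either minimum. Penk was at 1.27 without the filter on macrophage genes, and with a minimum of 2500 UMIs Ikzf2 was at 0.79 and Ikzf4 at 0.69, under 2-fold. Leaving out a set gave 1.89 to 2.86 for Ccr8, 1.13 to 1.78 for Ikzf2, 2.06 to 3.27 for Itgb8 and 1.27 to 2.01 for Ikzf4. Itgb8 was at 5.03 with a minimum of 8000 UMIs. At day 19, in 86 against 113 cells, the members at least 2-fold higher were Areg, at 2.34 (1.503 to 3.26), and Il1rl1, at 1.36 (-0.32 to 3.26), where 1.32% of all genes with at least 100 UMIs and 3.71% with at least 20 were. Il1rl1 rested on 10 against 5 UMIs, fewer than either minimum, and was at -1.22 without cells holding a Mki67 or Top2a UMI. Ccr8 was then at 0.28 (-0.03 to 0.58) and Ikzf2 at -0.02 (-0.45 to 0.41). Areg came to 73.6 CPM in expanded and 14.6 CPM in single negative cells of day 19, and it kept its sign in the 19 alternatives, from 1.93 to 3.80. Of the 76 Areg UMIs in all negative cells of day 19, 1 cell held 31 and 2 cells held at least 50%.

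Other genes linked to regulatory T cells in the literature separated the CD4 classes to different degrees. Of 18 receptors and surface molecules, 16 had at least 100 UMIs at day 13, and 8 of them were at least 2-fold higher in positive cells and none lower, with a median log2 ratio of 0.94. Of all genes with at least 100 UMIs, 3.38% were at least 2-fold higher and 1.82% lower at day 13. At day 19 these shares were 2.90% and 2.42%. Il2ra, the chain that gives the IL-2 receptor its high affinity, was at 308 against 59.1 CPM at day 13 and 428 against 89.5 CPM at day 19. At day 19, 8 of 17 were higher, and Nrp1 (-1.06) and Ccr6 (-1.07) were at least 2-fold lower, with a median of 0.61. Of the 8 suppression and effector genes with enough UMIs, 4 were higher at day 13 and 3 at day 19, with medians of 1.01 and 0.55. Gzmb, a granzyme, was at 1304 against 354 CPM and 1326 against 293 CPM.

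Transcription factors other than the members differed less. The shares of all genes at least 2-fold higher or lower are those given above. Of 13 with enough UMIs at day 13, Prdm1 (1.40) and Maf (1.14) were at least 2-fold higher and Satb1 (-1.68) was lower, with a median of -0.10, and at day 19 the first pair of 12 was higher again, with a median of -0.12. The other Ikaros family genes did not follow Ikzf2 and Ikzf4: Ikzf1 was at -0.89 (-1.24 to -0.55) and -0.63 (-1.02 to -0.25), and Ikzf3 at 0.15 (-0.15 to 0.44) and 0.66 (0.36 to 0.97). Conventional helper genes lay on the other side, with 5 of 8 at least 2-fold lower in positive cells at day 13 and 6 of 8 at day 19, and medians of -1.96 and -2.99. Il2 had 2 UMIs in positive and 401 in negative cells at day 13, and 3 and 148 at day 19.

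The 10 genes most like Foxp3, by the lower of the days' log2 ratios of positive to negative CD4 cells over 6602 genes with at least 50 UMIs on each day, were Cxcl2 (4.13), Rln3 (3.33), Areg (2.57), Lamc1 (2.53), Rapsn (2.50), Ncmap (2.47), Neb (2.35), Klrg1 (2.26), Il2ra (2.26) and Il10 (2.24). Ikzf4 came 12th, Ikzf2 15th, Itgb8 38th, Ccr8 241st and Penk 6389th. Cxcl2, a neutrophil chemokine, was at 80.4 against 3.46 CPM at day 13 and 76.5 against 4.37 CPM at day 19. Klrg1, a receptor of highly differentiated lymphocytes, was at 56.3 against 11.8 CPM and 109.6 against 6.55 CPM.

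Surface proteins were read by 138 antibody tags in the same droplets. The tags differed in how far they separated Foxp3-negative CD4 from CD8 cells. The CD8a tag had equal medians, 9 counts at day 13 and 5 at day 19, whereas the CD4 tag had 5 against 3 and then 3 against 1, and the CD5 tag 17 against 9 and then 13 against 5. Flat tags are given as counts and not read as protein levels. ST2, the protein of Il1rl1, and CD198, the protein of Ccr8, had flat tags: ST2 had a median of 42 counts in positive, negative and CD8 cells at day 13 and 21, 22 and 21 at day 19, and CD198 had 5, 5 and 5 and then 3, 2 and 3. CD25, the protein of Il2ra, was also at the same median in the 3 classes on each day. CD357, the protein of Tnfrsf18, did separate them, with medians of 9 against 5 and 10 against 4 counts. At least 1.5-fold higher in positive cells were 4.35% of tags at day 13 and 3.62% at day 19, with CD357 at log2 ratios of 0.94 and 1.01. The tags were CD54, CD23, IA/IE, CD357, CD326 and CD1d at day 13. At day 19 they were CD54, CD5, IA/IE, Ly6A and CD357. At least 1.5-fold lower were TCRgd at day 13 and CD1d at day 19.

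RNA of other cell types was unevenly spread over the classes, and its part in the values above was not tested. At day 13 the 6 dendritic markers summed to 564 CPM in positive cells (386 to 895 over sets) and 311 CPM in negative cells (11.8 to 435), with Fscn1 at 437 CPM in positive cells, and the 6 B and plasma cell markers to 297 CPM (14.6 to 934) and 72.9 CPM, with Jchain at 185 CPM. At day 19 these lists were at 78.5 against 63.8 CPM and 10.2 against 23.6 CPM, and 5 of the 6 B and plasma cell markers were at 0 in positive cells. The 11 macrophage and microglia markers summed to 243 against 163 CPM at day 13 and 193 against 253 CPM at day 19. The 6 choroid plexus, glial and neural markers were at 51.3 against 82.6 CPM at day 13 and at 41.3 against 312.7 CPM at day 19, where negative cells ranged from 50.4 to 1070 CPM over sets, with Ttr at 207 CPM in negative and at 0 in positive cells. The 5 cycling genes were at 259 against 393 CPM at day 13 and 728 against 384 CPM at day 19. The 5 NK and innate lymphoid markers summed to 49.99 against 96.4 CPM at day 13 and 63.6 against 93.4 CPM at day 19. Of these, Gata3 was highest in positive cells, at 48.7 and 63.6 CPM, and Il5 and Il13 were at 0 there on both days. Without cells holding a Mki67 or Top2a UMI, the day ratio of Ccr8 in positive cells was 1.31.

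Free RNA in droplets gives some UMIs to cells that do not express a gene. In barcodes with under 100 UMIs, Foxp3 was at 56.4 CPM at day 13 and 93.1 CPM at day 19, and its level in CD8 cells was 15.1% and 5.23% of that. Taking all Foxp3 in CD8 cells as free RNA gives a reference level for each member. It assumes the same free RNA share in every class and set. Neither that nor the part of free RNA in the levels was tested. By set, Foxp3 in CD8 cells ran from 3.44 to 11.4 CPM at day 19, against 4.87 CPM over all sets. At day 13 it ran from 7.17 to 11.5 CPM, against 8.52 CPM. Compared with CD8 cells, 5 of 7 members were at least 2-fold higher in Foxp3-negative CD4 cells on both days, all but Ikzf2 and Ikzf4, where 4.57% of genes with at least 100 UMIs at day 13 and 5.58% at day 19 were, and 8.06% and 9.10% of those with at least 20. In Foxp3-negative CD4 cells the 7 members stood at 4.40 to 14.7 times that reference level at day 13 and at 12.1 to 118 times at day 19. In CD8 cells Ikzf2 stood at 6.95 and 15.9 times and Ikzf4 at 3.61 and 11.7 times, whereas Itgb8, Penk and Areg were at 1.00, 1.37 and 0.924 times at day 13 and at 1.88, 1.56 and 3.28 times at day 19.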

How the data were processed

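Per the submitters' processing notes, bcl2fastq 2.20, Cell Ranger 4.0.0, STAR 2.7.5c, Seurat and R 4.1.2 were used, with the build mm10. For the settings and the gene annotation, the sources used here give nothing. The matrices were deposited as whole-number UMI counts of genes, antibody tags and multiplexing tags for every barcode, per the file headers. The authors deposited contig tables with 1 row per receptor contig and its UMI count, 4 tables per day. Feature and barcode names were used as deposited, and the values of other kinds in those files are names only.

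Cells were barcodes with a contig, at least 5000 gene UMIs, at most 10% mitochondrial UMIs and at most 3 UMIs of C1qa, Lyz2 and Csf1r. Levels are UMIs summed over cells per 1000000 summed gene UMIs (CPM). Shares of cells were taken after each cell was thinned to 5000 UMIs, which left out no cell; cells kept the Foxp3 class of their full counts, except for the share of Foxp3 itself and the shares of Foxp3 among cells with a member, where Foxp3 was read after thinning. Ratios have exact Poisson intervals and shares exact Clopper-Pearson intervals. A sum of 0 was set to a floor of 3 counts over the group. With 1 capture per day no test across samples was possible, so a difference of at least 2-fold is described beside the share of all genes that reached it. Doublets were not called, and an alternative left out the 8% of cells with the most UMIs. The interval code was tested on simulated data. Genes named besides the members come from lists of regulatory T cell and helper genes, from partners of members, and from the 10 genes with the highest lower ratio of both days. The members and lists were chosen with earlier results of these data known. Python 3.11.15, numpy 2.4.6, scipy 1.17.1, pandas 2.3.3 and matplotlib 3.10.9 were used. Gene positions and promoters are from RefSeq, build GRCm38.p6.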

Additional observations from a re-analysis of the deposited data

Results flagged for a closer look

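Penk in Foxp3-negative CD4 cells went opposite ways with clone size on the days: the log2 ratio of expanded to single cells was 7.59 at day 13, from 68 against 2 UMIs, and -1.12 at day 19, from 180 against 502 UMIs. The difference between the days was not tested, and the day 19 value changed sign without set 2. At day 13, 3 cells of set 1 held 67 of the 68 UMIs, so the contrast between the days rests on that set. The day 13 value was 1.27 without the filter on macrophage genes.

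Foxp3 was also found in barcodes that the comparisons did not use. After thinning, 12.1% (9.19 to 15.4) of barcodes with neither Cd4 nor Cd8 UMIs held it at day 13 and 21.1% (16.1 to 26.9) at day 19. In barcodes with UMIs of both coreceptors the share was 27.5% (21.1 to 34.6) and 36.0% (27.2 to 45.5), against 1.93% and 1.11% in CD8 cells. Without thinning, 53 of 64 and 55 of 56 Foxp3-positive barcodes with neither coreceptor also held Ikzf2, and 54 of 56 and 46 of 48 of those with both.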

How the results depend on the processing

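The Foxp3 share of CD4 cells was 14.1% at day 13 and 20.7% at day 19 with a minimum of 2500 UMIs. There, cells were also thinned to 2500 UMIs. The share was 30.0% at day 13 with a minimum of 8000, and 30.1% at day 13 without thinning. It was 19.0% and 22.5% with at least 2 Foxp3 UMIs, and 21.4% and 24.2% with at least 2 Cd4 UMIs. Leaving out a contig set gave 24.0% to 27.1% and 28.0% to 31.9%. The number of members at least 2-fold higher in Foxp3-positive cells at day 19 was 3 with a minimum of 8000 UMIs. Leaving out a set gave 4 to 7 at day 13 and 5 throughout at day 19. The number of members at least 2-fold different between the days in Foxp3-positive cells was 1. It was 2 with a minimum of 8000 UMIs, with 0 UMIs of C1qa, Lyz2 and Csf1r, with at least 2 Foxp3 UMIs, without the 8% of cells with the most UMIs, and with means of per-cell or contig-set CPM. It was 0 without the filter on those genes, 3 without cells holding a Mki67 or Top2a UMI, 4 at a fold of 1.5, and 1 to 3 when a set was left out: 3 without day 19 set 2, and 2 without day 13 set 3, day 13 set 4 or day 19 set 3. The number of members at least 2-fold different between expanded and single Foxp3-positive cells was 1. It was 0 with a minimum of 2500 UMIs, without the filter on macrophage genes and with clones from 3 cells, 2 with 0 UMIs of those genes, with at least 2 Cd4 UMIs, with Foxp3 status after thinning and without cycling cells, 3 without the 8% of cells with the most UMIs, and 1 to 3 when a set was left out. These are 31 of 109 values of counts and shares, and the other 78 stayed within 1.5 times the reported count or within the interval of the reported share.

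Among 1411 values of single members, 11 turned a difference of at least 2-fold to the opposite sign; smaller differences that changed sign are not among them. Penk in expanded against single Foxp3-positive cells of both days was -2.40 with a minimum of 8000 UMIs, -1.29 without cycling cells and -0.69 with clones from 3 cells. Penk in Foxp3-positive against Foxp3-negative cells at day 19 was 0.11 without cycling cells and -2.60 to 0.37 when a set was left out. Penk in expanded against single Foxp3-negative cells at day 19 was 0.42 with contig-set means, -2.11 to 1.14 when a set was left out, and 2.10 without the 5 CD4 cells of each day with the most Penk, an alternative chosen after seeing the data. With at least 2 Cd4 UMIs, Il1rl1 in Foxp3-positive against Foxp3-negative cells at day 13 was -0.26, and Itgb8 in expanded against single Foxp3-positive cells at day 13 was -0.18. Il1rl1 in expanded against single Foxp3-negative cells at day 19 was -1.22 without cycling cells. The cause was not tested. Ikzf2 in Foxp3-positive against Foxp3-negative cells stayed at 1.87 to 2.42 at day 13 and 1.71 to 2.53 at day 19, Areg at 2.26 to 3.64 and 1.59 to 3.16, and Ikzf4 at 2.56 to 3.23 and 1.43 to 2.57, over the 17 alternatives of each. No paired analysis of the days was possible because each day is 1 capture. The Foxp3 classes were set side by side within contig sets but not tested, since the mice of a set are not stated. No result comes from a test. Few UMIs limit Il1rl1, Itgb8 and Ikzf4, with 17 to 42 in Foxp3-negative cells of either day. They also limit Penk, with 30 UMIs in 4 Foxp3-positive cells at day 13.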
